A study of Rattus norvegicus with 4 samples.

Results

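The genes described are splicing factors and RNA helicases, read in rat kidney on 4 Affymetrix RAE-230A arrays. The members are the probe sets, each a group of short probes for 1 transcript, whose gene symbol in the platform annotation begins with Snrp, Snrnp, Srsf, Sf3a, Sf3b, Hnrnp, Prpf, Ddx or Dhx, or is Rbmx. The rule found 88 of the 10411 genes that the array reads by a probe set with 1 symbol, and these are read by 115 of the 15866 probe sets that are not array controls. A further 9 probe sets that carry several symbols, at least 1 of them of this kind, were left out because they cannot be given to 1 gene. The 4 groups were spontaneously hypertensive rats (SHR) exposed to nicotine before birth, SHR given saline before birth, Brown Norway rats (BN) exposed to nicotine before birth, and BN given saline before birth. All animals were males of 9 weeks. Each group was 1 pool of equal amounts of RNA, from 13 animals for SHR nicotine and 12 for each other group, and each pool was read on 1 array. The pools therefore carry no spread between animals, and no comparison between 2 pools has a replicate.

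Splicing removes introns from nascent transcripts on the spliceosome. Small nuclear ribonucleoproteins (snRNPs) recognise the splice sites: a ring of Sm proteins binds most of the small nuclear RNAs, and further proteins are particular to each particle. The SF3A and SF3B complexes hold the U2 particle at the branch point, SR proteins (Srsf genes) mostly favour the use of exons, and hnRNP proteins coat nascent RNA and often favour skipping. RNA helicases of the DEAD-box (Ddx) and DEAH-box (Dhx) families use ATP to remodel RNA, some of them in splicing and others in ribosome assembly, export, translation or decay. Most of these genes are expressed in nearly all cells, kidney included.

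The values are MAS5 signals, an intensity in arbitrary units that was scaled to a common level on each array, so a level is compared between arrays and not between probe sets. Signals were raised to a floor of 44.5, the 40th percentile of all values, and then taken to log2. A probe set was tested if the geometric mean of its 4 floored signals reached 89.0, a limit of 2 times the floor. By this limit 79 members of 65 genes were tested, 69 of them at or above the limit on every array. The other 36 members were not tested. Of these, 13 lay below the floor on all 4 arrays. They include Ddx25, a helicase known from testis, with 11.5 and 7.98 in SHR nicotine and saline and 22.0 and 24.1 in BN nicotine and saline, and Snrpn, a Sm protein known chiefly from brain, with 40.8 and 29.4 in SHR nicotine and saline and 34.0 and 7.88 in BN nicotine and saline. The probe set of Snrpa, a U1 protein, also stayed below the floor, with signals between 2.97 and 6.67. Just inside the limit were Ddx39a, Ddx50 and a second probe set of Hnrnpa2b1, with mean signals of 89.1, 89.6 and 90.3. Just outside it were a probe set of Hnrnpa1, Ddx21 and Ddx46, with 83.9, 82.7 and 82.7.

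Tubule markers of the kidney were strong on all arrays, and the signal of Umod, a gene of the thick ascending limb, was 5256 and 5260 in SHR nicotine and saline, against 4076 and 4044 in BN nicotine and saline. The tubule marker Slc12a1 went the other way, at 531.5 and 515 in SHR nicotine and saline, against 850 and 930 in BN nicotine and saline. All 8 tested kidney marker probe sets passed for strain with limma, 5 higher and 3 lower in SHR, where 17.3% of all tested probe sets did. The summed signal of the kidney markers was 22352 and 22400 in SHR nicotine and saline, against 18618 and 19176.5 in BN nicotine and saline. The podocyte marker Nphs1 was not tested: 1 of its probe sets read between 83.8 and 90.7, and the other was below the floor on every array. Of 9 probe sets for leukocyte markers 3 were tested, and their summed signal was 3978 and 3381 in SHR nicotine and saline against 2808 and 2561 in BN nicotine and saline. Cd74, Lyz2 and Fcer1g made up most of it, and Ptprc, Cd3e and Cd79b were below the floor on every array. Of 11 probe sets for dividing cells, Pcna alone was tested, and the sum was 614 and 641 in the SHR and BN nicotine pools against 704 and 702 in the saline pools. Pcna itself was level, at 365 and 374 in SHR nicotine and saline and 394 and 391 in BN nicotine and saline. The difference in the sum came mostly from untested probe sets near or below the floor. Of 3 probe sets for adipocytes, Lpl alone was tested, and the sum was 420.3 and 486 in SHR nicotine and saline against 654 and 598 in BN nicotine and saline. Lpl, which vessels and muscle also hold, made up most of it and was lower in SHR (log2 ratio -0.63, limma adjusted p = 8.3e-05), while Plin1 was below the floor on every array. Of 5 probe sets for adrenal cortex none was tested. RNA integrity was read from the control probe sets for beta-actin, whose 3′ signal divided by the 5′ signal was 1.34 and 1.39 in SHR nicotine and saline and 1.49 and 1.54 in BN nicotine and saline. The like ratio of Gapdh was at most 1.11. The kidney, leukocyte and adipocyte sums and the beta-actin ratio thus moved with strain. The leukocyte sum moved with nicotine, as did the dividing-cell sum, the latter mostly through probe sets near or below the floor. Their part in the differences below was not tested, and in such bulk RNA fewer cells of a type and less RNA per cell cannot be told apart.

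The group as a whole was even across the 4 pools. In 75 of the 79 tested members (94.9%) the highest signal was at most 1.5 times the lowest, against 87.7% of all 6678 tested probe sets. The 4 members with a wider span were Snrnp200 (2.43-fold between its highest and lowest array), Rbmx (1.96-fold), 1 probe set of Hnrnpa1 (1.93-fold) and Dhx29 (1.52-fold). The log2 ratio of SHR over BN, averaged over treatments, had an SD of 0.20 across tested members, against 0.33 across all tested probe sets, and the members' median was -0.01. The log2 ratio of nicotine over saline, averaged over strains, had an SD of 0.14 against 0.13, and the members' median was again -0.01. Without Snrnp200 and Rbmx the nicotine SD of the members was 0.11.

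**Figure D1:**
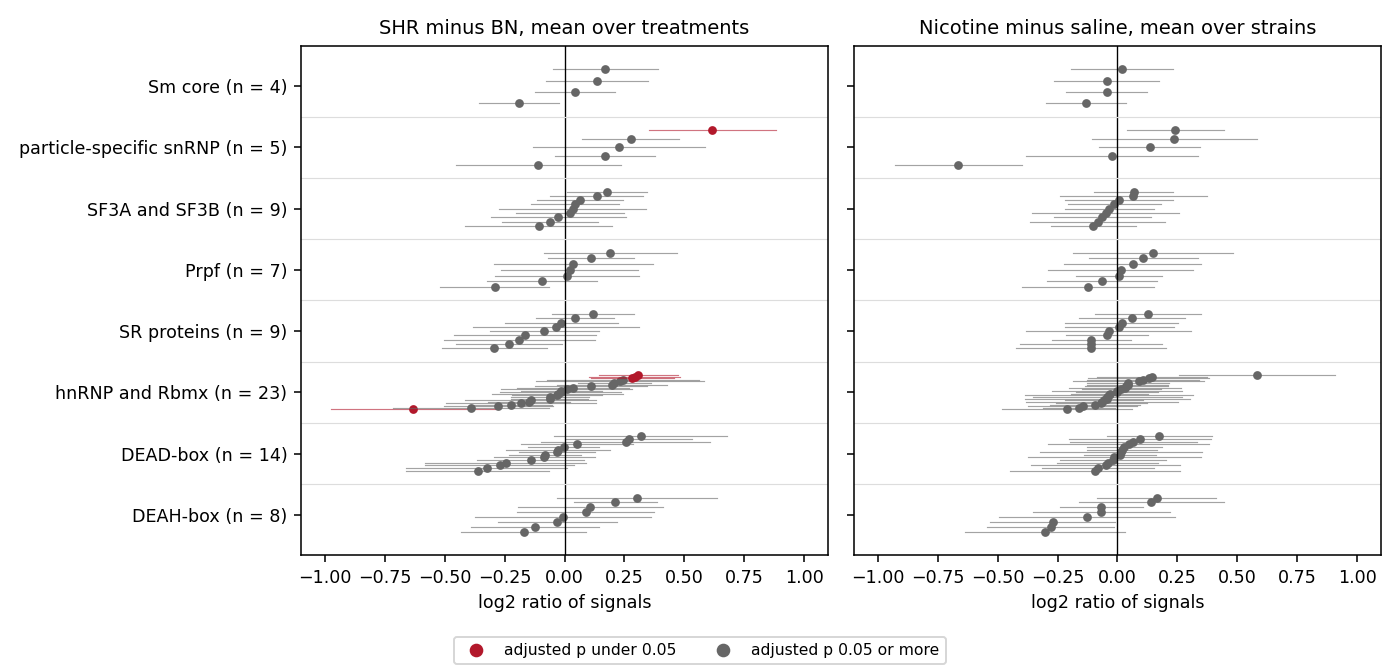
Log2 ratios of the 79 tested members by role, SHR minus BN averaged over treatments (left) and nicotine minus saline averaged over strains (right). Points are probe sets, lines are 95% intervals from limma, and red marks an adjusted p under 0.05. Red points are found for strain, with 4 higher and 1 lower in SHR, and none for nicotine.

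The strains were compared with limma across all 6678 tested probe sets, fitted with strain and treatment as additive terms, with Benjamini-Hochberg adjustment. Of the 79 tested members, 5 (6.33%) passed an adjusted p of 0.05, where 17.3% of all tested probe sets did. Of these 5, 4 were higher in SHR, 5.06% of the tested members against 8.13% of all tested probe sets. The other 1 was lower, 1.27% of the tested members against 9.13%. At an unadjusted p under 0.05 there were 18 members, 22.8%, where 29.7% of all did. The model has 1 residual degree of freedom, so its errors are borrowed largely from other probe sets. With 1 array per group, the residual of each probe set is the gap between its SHR and BN nicotine ratios. Array noise and a true gap cannot be told apart in it. The errors, intervals and p-values therefore hold no spread between replicate arrays or between animals. The median half-width of the 95% interval of a member's log2 ratio was 0.23. With strain as the only factor and either BN nicotine or BN saline left out, BN rests on 1 array. Far fewer of all tested probe sets passed then, so calls among members in those fits are not set against the 17.3% above.

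Among the proteins particular to 1 snRNP, the largest difference was in Snrnp200, the U5 helicase that unwinds the U4/U6 duplex when the spliceosome is activated. Its signal was 164 in the SHR nicotine pool and 247 in the SHR saline pool, against 101 in BN nicotine and 169 in BN saline. Under each treatment the SHR pool was the higher, but SHR nicotine lay just below BN saline, so the strains overlap when treatment is ignored. Averaged over treatments, Snrnp200 rose 1.53-fold in SHR (log2 ratio 0.62 with an SE of 0.13, limma adjusted p = 0.00211). It was lost with strain as the only factor (adjusted p = 0.151), where the nicotine difference counts as noise, and also in that fit without SHR saline, BN nicotine or BN saline, at 0.462, 0.610 and 0.0536. Without SHR nicotine it passed, at 0.0446. The log2 ratio itself moved to 0.32 without SHR saline, 0.25 without BN nicotine, 0.91 without SHR nicotine and 0.99 without BN saline.

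Snrnp200 also had the largest nicotine ratio of any tested member. Nicotine pools were lower in both strains, 1.51-fold in SHR and 1.67-fold in BN. The average log2 ratio was -0.67 (SE 0.13, 95% interval -0.93 to -0.40), with an adjusted p of 0.0780 with limma, so it did not pass. Over 12 alternatives that p lay between 0.0610 and 1. With treatment as the only factor and 1 array left out, the log2 ratio lay between -1.01 (without SHR nicotine) and -0.32 (without BN nicotine), with -0.39 without SHR saline and -0.94 without BN saline. By its unadjusted p it ranked 5 of 6678 tested probe sets. The gene is read by 1 probe set, so no second one bears on the value.

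Rbmx, the X-linked gene of hnRNP G, had the largest nicotine ratio in the other direction. Its signal was 115 in the SHR nicotine pool and 147 in the BN nicotine pool, against 74.8 in SHR saline and 101 in BN saline. Both nicotine pools were above both saline pools. The ratio was 1.54-fold in SHR and 1.45-fold in BN, with an average log2 ratio of 0.58 (SE 0.15, adjusted p = 0.341 with limma), which did not pass. With treatment as the only factor and 1 array left out it lay between 0.36 (without SHR saline) and 0.80 (without BN saline). For strain its log2 ratio was -0.39 (adjusted p = 0.0945). Rbmx too rests on 1 probe set, and the gene has near-identical copies in mammalian genomes that its probes may also read.

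Snrnp200 and Rbmx had the widest nicotine ratios, in opposite directions, and their promoters are shown for that reason, as 250 bases before the start site and 50 after it, in RefSeq sequence of build GRCr8, written 5′ to 3′. Capitals mark matches on either strand. The GC box was searched as GGGCGG. The CCAAT box was searched by the letters of its name. The TATA box was searched as TATAAA. The ETS motif was searched as CCGGAAG, and the E-box as CACGTG.
Snrnp200, chr3:134881923-134882222, plus strand: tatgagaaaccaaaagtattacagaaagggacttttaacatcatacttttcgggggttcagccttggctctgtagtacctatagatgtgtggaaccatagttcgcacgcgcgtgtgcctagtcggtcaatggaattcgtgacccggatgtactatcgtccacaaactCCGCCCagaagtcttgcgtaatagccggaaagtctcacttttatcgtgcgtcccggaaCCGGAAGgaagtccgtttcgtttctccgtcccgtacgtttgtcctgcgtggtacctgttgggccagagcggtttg
Rbmx, chrX:140351986-140352285, minus strand: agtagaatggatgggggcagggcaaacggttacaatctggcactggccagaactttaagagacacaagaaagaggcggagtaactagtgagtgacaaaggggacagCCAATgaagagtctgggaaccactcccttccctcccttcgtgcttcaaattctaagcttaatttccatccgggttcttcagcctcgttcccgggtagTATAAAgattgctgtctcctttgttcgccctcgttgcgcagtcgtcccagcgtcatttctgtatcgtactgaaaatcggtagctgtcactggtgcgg
The Snrnp200 window held 1 GC box and 1 ETS match. The Rbmx window held 1 CCAAT match and 1 TATA match, and TATAAA stood in 13.1% of 19005 protein-coding promoters of the same length. Of the 88 member genes, 84 had a promoter in the table. ETS matches were found in 36.9% of these 84, against 11.2% of all protein-coding promoters, CCAAT in 57.1% against 38.4%, GC boxes in 57.1% against 43.1%, and TATAAA in 5.95% against 13.1%. The E-box was in 10.7% against 7.27%. The median GC content was 58.0% in member promoters and 55.3% in all. A match in a window is a description of its letters.

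**Figure D2:**
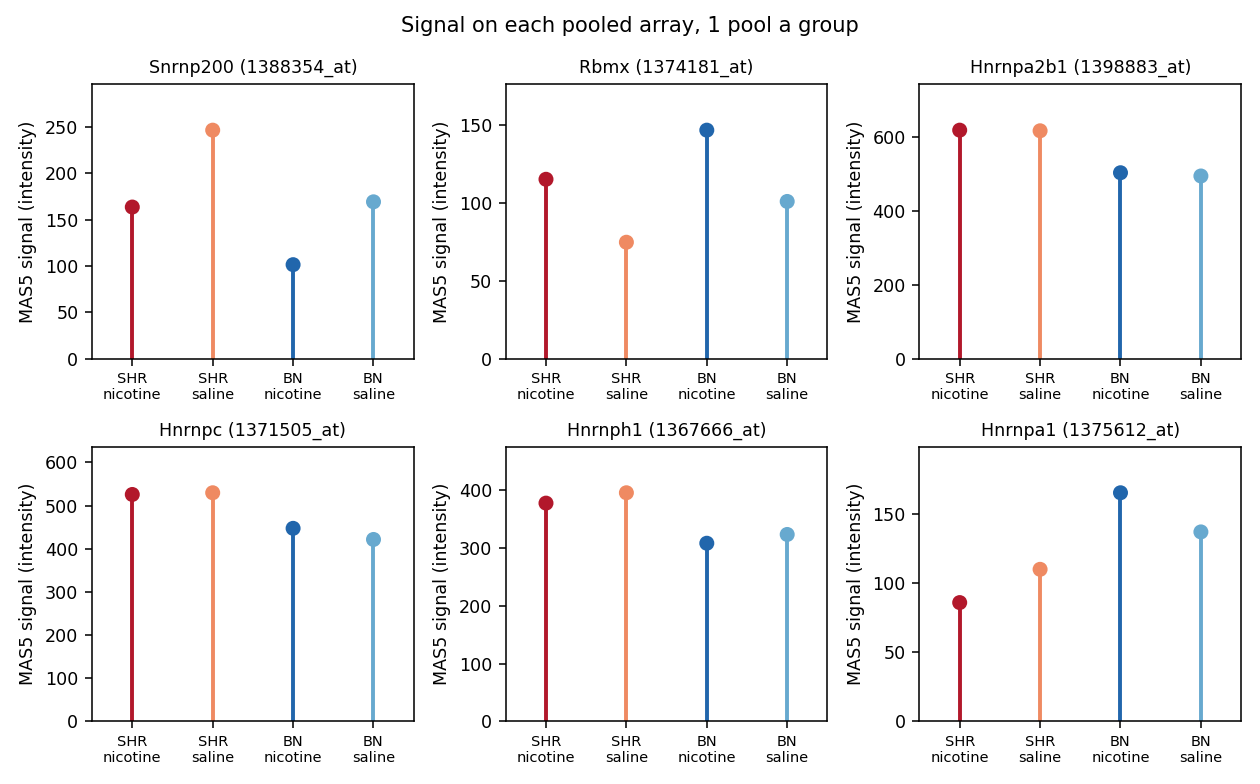
MAS5 signal, in intensity units from 0, of 6 members on each of the 4 pooled arrays. Snrnp200 was lowest in BN nicotine at 101 and highest in SHR saline at 247, Rbmx stood higher in both nicotine pools, and Hnrnpa2b1, Hnrnpc and Hnrnph1 stood higher in both SHR pools.

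Of the other snRNP members, none passed for strain or nicotine. Snrnp70, the U1 protein that contacts the SR proteins, had signals of 373 and 300.1 in SHR nicotine and saline and 293 and 261 in BN nicotine and saline. It was highest in SHR nicotine and lowest in BN saline, with log2 ratios of 0.28 for strain (adjusted p = 0.0591 with limma) and 0.24 for nicotine (adjusted p = 0.778 with limma). Snrpb2, a U2 protein, read 103.9 in both SHR pools and 132 in BN nicotine against 95.2 in BN saline, so the 1.39-fold ratio seen in BN had no counterpart in SHR. Of the 4 tested Sm core members, Snrpd3 had the highest strain ratio at 0.17 and Snrpe the lowest at -0.19. Snrpe read 466 and 485 in SHR nicotine and saline and 537 and 548 in BN nicotine and saline, so both SHR pools were lower (adjusted p = 0.120 with limma). Snrpd3 read 249.99 and 262 in SHR nicotine and saline and 226 and 229 in BN nicotine and saline, with both SHR pools higher. Under nicotine the Sm core ratios lay between -0.13 for Snrpb and 0.02 for Snrpd2. Snrpb read 614 and 631 in SHR nicotine and saline and 559 and 653 in BN nicotine and saline, and BN nicotine was its lowest pool. Snrpd2 read 367 and 416 in SHR nicotine and saline and 384 and 330.3 in BN nicotine and saline, and its nicotine ratios had opposite signs in SHR and BN.

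The SF3A and SF3B complexes were the most even role group for strain, with 9 tested probe sets of 7 genes between -0.11 and 0.18 on the log2 scale and none called. Sf3b1, the branch-point protein, read 381 and 387 in SHR nicotine and saline and 367 and 378 in BN nicotine and saline on its brighter probe set. Its other probe set read 140.5 and 167 in SHR nicotine and saline and 161 and 152 in BN nicotine and saline. The 2 probe sets had strain ratios of 0.04 and -0.03. Sf3b2, a further subunit at the branch point, read 438 and 454 in SHR nicotine and saline and 405 and 449 in BN nicotine and saline on its brighter probe set and 134 and 121 in SHR nicotine and saline and 127 and 149.9 in BN nicotine and saline on the other, which had the lowest strain ratio of the group. For the nicotine average the group lay between -0.10 and 0.07. Sf3b6, which sits at the branch-point adenosine, read 639.8 and 586 in SHR nicotine and saline and 542 and 539.6 in BN nicotine and saline. It had the highest ratio in both comparisons, 0.18 for strain (95% interval 0.01 to 0.34, adjusted p = 0.139 with limma) and 0.07 for nicotine.

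Among the 7 tested Prpf members, none was called. Prpf8, the U5 scaffold that binds Snrnp200, read 441 and 430.1 in SHR nicotine and saline and 399.9 and 406 in BN nicotine and saline. Its average nicotine log2 ratio was 0.01, with a 95% interval from -0.17 to 0.19. Prpf6, which bridges U5 and U4/U6, had the lowest strain ratio of the group at -0.29 (adjusted p = 0.0755 with limma), mostly from the saline pools, at 244 in SHR against 344 in BN. Under nicotine it read 303 in SHR and 321 in BN. Prpf40b, a U1-associated protein, had the highest strain ratio of the group at 0.19 and the lowest nicotine ratio at -0.12. It read 169.8 and 167 in SHR nicotine and saline and 134 and 162 in BN nicotine and saline, so BN nicotine was the pool that stood lowest. Prpf39, also associated with U1, had the highest nicotine ratio at 0.15 and read 106 and 97.7 in SHR nicotine and saline and 106 and 93.2 in BN nicotine and saline.

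The 9 tested SR protein probe sets, of 6 genes, had no call in either comparison, and their strain ratios under nicotine and under saline are given apart, with no test of the difference. Under nicotine 7 of 9 were lower in SHR, with a median log2 ratio of -0.13, while under saline 4 of 9 were, with a median of 0.02. Of all 6678 tested probe sets, 3386 were lower in SHR under nicotine and 3275 under saline. Srsf1, Srsf2 and Srsf6 count by 2 probe sets each, and all 9 were read on the same 4 arrays. Srsf5 read 455 in SHR nicotine and 527 in SHR saline, against 646 in BN nicotine and 512 in BN saline. The brighter probe set of Srsf1, the prototype SR protein, read 274 and 285 in SHR nicotine and saline and 381 and 308 in BN nicotine and saline. In both genes the BN nicotine pool stood apart on the high side. Srsf11 read 111 in SHR nicotine against 141 in SHR saline, and 149 in BN nicotine against 137 in BN saline. The dimmer Srsf1 probe set read 115 and 134 in SHR nicotine and saline and 139 and 139 in BN nicotine and saline, with SHR nicotine lowest. Srsf6, which had the highest strain ratio of the group at 0.12, read 524 and 521 in SHR nicotine and saline and 465 and 497 in BN nicotine and saline on its brighter probe set and 90.5 and 98.9 in SHR nicotine and saline and 98.8 and 95.2 in BN nicotine and saline on the other. Srsf2 read 587 and 610.5 in SHR nicotine and saline and 549 and 614 in BN nicotine and saline on its brighter probe set and 203 and 206 in SHR nicotine and saline and 211 and 203 in BN nicotine and saline on the other. The probe sets of Srsf2 and of Srsf6 thus differed in the sign of the strain ratio. A difference of nicotine ratio between strains has no test here, since it is the residual of the model.

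The hnRNP genes held the other 4 strain calls, among 23 tested probe sets of 16 genes that include Rbmx. This share, 17.4%, is that of all tested probe sets, 17.3%. Of the 4, 3 were higher in SHR. Hnrnpa2b1, which encodes hnRNP A2 and B1, read 619 and 617 in SHR nicotine and saline, against 503 and 495 in BN nicotine and saline. The ratio of SHR over BN was 1.24-fold, or 0.31 ± 0.08 on the log2 scale (SE), with a limma adjusted p of 0.0106. Hnrnpc, which binds uridine tracts of nascent RNA, read 526 and 529.8 in SHR nicotine and saline, against 447 and 421 in BN nicotine and saline. The ratio of SHR over BN was 1.22-fold, or 0.28 ± 0.08 on the log2 scale (SE), with a limma adjusted p of 0.0245. Hnrnph1, which binds runs of guanine, read 378 and 396 in SHR nicotine and saline, against 308 and 324 in BN nicotine and saline. The ratio of SHR over BN was 1.22-fold, or 0.29 ± 0.09 on the log2 scale (SE), with a limma adjusted p of 0.0328. In all 3 genes both SHR pools lay above both BN pools, and nicotine and saline pools of a strain differed by at most 1.06-fold. These genes were picked by the strain test, so the gap between strains adds no support to it.

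Without BN nicotine or without BN saline, none of these 3 genes passed, as for all members. Hnrnpc and Hnrnph1 also missed without SHR nicotine and without SHR saline, where Hnrnpa2b1 passed. After quantile normalisation Hnrnpa2b1 passed and the other 2 did not. After cyclic loess Hnrnph1 missed (limma adjusted p = 0.0568) and the other 2 passed. When the spread was not fitted to intensity all 3 missed, Hnrnpa2b1, Hnrnpc and Hnrnph1 having limma adjusted p = 0.105, 0.135 and 0.118. With low probe sets kept in all 3 missed too, at 0.313, 0.383 and 0.315 in the same order. Hnrnpa2b1 passed under 9 of 13 alternatives, Hnrnpc under 6 and Hnrnph1 under 5. The promoters of the 3 genes are shown because their strain ratios were of like size, with the same capitals as above.
Hnrnpa2b1, chr4:81875837-81876136, minus strand: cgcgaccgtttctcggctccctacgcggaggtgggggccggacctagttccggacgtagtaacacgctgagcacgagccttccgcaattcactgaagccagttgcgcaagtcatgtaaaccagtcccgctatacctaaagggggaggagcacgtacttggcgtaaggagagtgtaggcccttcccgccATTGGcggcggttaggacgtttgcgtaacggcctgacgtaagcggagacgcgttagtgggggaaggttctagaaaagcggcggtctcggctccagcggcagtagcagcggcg
Hnrnpc, chr15:27282666-27282965, minus strand: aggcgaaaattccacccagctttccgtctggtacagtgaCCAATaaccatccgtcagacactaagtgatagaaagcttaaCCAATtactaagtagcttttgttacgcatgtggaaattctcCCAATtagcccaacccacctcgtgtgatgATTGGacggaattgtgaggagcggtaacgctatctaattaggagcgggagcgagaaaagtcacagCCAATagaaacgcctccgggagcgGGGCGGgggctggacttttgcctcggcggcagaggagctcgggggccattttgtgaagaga
Hnrnph1, chr10:35194383-35194682, plus strand: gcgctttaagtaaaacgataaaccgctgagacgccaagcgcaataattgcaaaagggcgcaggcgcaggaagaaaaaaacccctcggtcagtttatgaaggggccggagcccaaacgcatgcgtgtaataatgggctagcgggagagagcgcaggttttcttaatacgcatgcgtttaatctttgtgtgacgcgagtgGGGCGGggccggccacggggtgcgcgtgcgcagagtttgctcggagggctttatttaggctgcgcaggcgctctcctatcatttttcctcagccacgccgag
Hnrnpc had 5 CCAAT matches and 1 GC box, Hnrnpa2b1 had 1 CCAAT match, and Hnrnph1 had 1 GC box. No motif of the 5 was found in all 3 windows.

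The fourth hnRNP call went the other way. The dimmer tested probe set of Hnrnpa1, which encodes a repressor of exon use that often opposes SR proteins, read 85.8 and 110 in SHR nicotine and saline, against 165 and 137 in BN nicotine and saline. It fell 1.55-fold in SHR (log2 ratio -0.63 with an SE of 0.16, limma adjusted p = 0.0120), 1.93-fold lower among nicotine pools and 1.25-fold lower among saline pools. It passed without SHR saline and missed without SHR nicotine, BN nicotine or BN saline, at adjusted p = 0.107, 0.226 and 0.0685. It also missed after quantile normalisation (0.0771), after cyclic loess (0.0652), when the spread was not fitted to intensity (0.0625) and when low probe sets were kept in (0.648). It passed under 4 of 11 alternatives in all. The brighter Hnrnpa1 probe set read 152 and 163 in SHR nicotine and saline and 162 and 151 in BN nicotine and saline, a strain log2 ratio of 0.01 with a 95% interval from -0.26 to 0.28. The intervals of the 2 probe sets do not overlap. Hnrnpa1 has many near-identical processed copies in rodent genomes, so either probe set may read more than 1 locus.

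The DEAD-box helicases gave 14 tested probe sets of 13 genes, with no call for strain or nicotine. Of these 14, 10 had a strain ratio below 0 and 4 above it, with a median of -0.06 on the log2 scale. Of all 6678 tested probe sets, 3347 had a strain ratio below 0. Ddx42, which binds the SF3B complex, had the lowest ratio, at 118 and 106 in SHR nicotine and saline and 146 and 142 in BN nicotine and saline (log2 -0.36, adjusted p = 0.0901 with limma). Ddx39a, a helicase of mRNA export, had the highest, at 94.5 and 105 in SHR nicotine and saline and 83.3 and 76.5 in BN nicotine and saline (log2 0.32, adjusted p = 0.233 with limma). In both genes the SHR and BN pools did not overlap, on opposite sides. They were picked as the extremes of the 14, which favours such a gap, and neither passed. The share of all tested probe sets with such a gap was not counted.

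Some helicases were nearly level over the 4 pools. Ddx3x, which acts in translation, read 985 and 1003 in SHR nicotine and saline and 1020 and 975 in BN nicotine and saline. Ddx5, a helicase of splicing and transcription, was read by 2 probe sets, with strain ratios of -0.08 and -0.03 and nicotine ratios of 0.01 and 0.03. The brighter Ddx5 probe set read 1112 and 1178 in SHR nicotine and saline and 1255 and 1169.9 in BN nicotine and saline, and the other 721 and 738 in SHR nicotine and saline and 769 and 723 in BN nicotine and saline. In both, BN nicotine was the highest pool. Nicotine averages of the DEAD-box group lay between -0.09 and 0.17, the highest being that of Ddx39b, a spliceosome and export helicase, at 330 in SHR nicotine against 262 in SHR saline and 301 in BN nicotine against 298 in BN saline. That ratio came from the SHR pools. The lowest was that of Ddx50, a nucleolar helicase, which read 93.5 and 102 in SHR nicotine and saline and 80.4 and 83.6 in BN nicotine and saline.

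The DEAH-box helicases gave 8 tested probe sets of 7 genes, again with no call. Their nicotine averages were below 0 in 6 of 8, Dhx36 counting by 2 probe sets, with a median of -0.10 on the log2 scale. Of all 6678 tested probe sets, 3336 had a nicotine average below 0. Dhx36, which resolves G-quadruplexes, was read by 2 probe sets: the brighter gave 145 in SHR nicotine against 193 in SHR saline and 179.7 in BN nicotine against 197 in BN saline, and the other gave 137 in SHR nicotine against 174 in SHR saline and 156 in BN nicotine against 181 in BN saline. Both were lower under nicotine in both strains, with average log2 ratios of -0.27 and -0.28, each with an adjusted p of 0.934 with limma. Dhx29, which helps ribosomes scan structured leaders, read 102 in SHR nicotine against 123 in SHR saline and 80.7 in BN nicotine against 102 in BN saline (log2 -0.30, adjusted p = 0.998 with limma). Dhx29 also had the highest strain ratio of the group, 0.30 (adjusted p = 0.213 with limma), and the brighter Dhx36 probe set the lowest, -0.17. Dhx30 read 191 and 181 in SHR nicotine and saline and 207 and 174 in BN nicotine and saline. Dhx30, of mitochondrial ribosome assembly, and Dhx38, of the second splicing step, had averages of 0.16 and 0.14.

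Over all 79 tested members, 0 passed for nicotine with limma, where 0.0449% of all tested probe sets did (1 higher and 2 lower of 6678). At an unadjusted p under 0.05 there were 6 members, 7.59%, where 5.08% of all did. Counted by size, 2 members were at least 1.5-fold apart between nicotine and saline in SHR, Rbmx and Snrnp200, against a background of 1.26%. In BN it was 1, Snrnp200, against 0.854%. Both genes are also among the 6 members above, and both were named in an earlier account of these data. Rbmx is a member by a clause of its own, so these counts are not independent of the data. The direction was the same in both strains for 41 of 79 members (51.9%), where 48.7% of all tested probe sets had the same direction. Between strains under saline 0 members were 1.5-fold apart, against 6.53% of all tested probe sets. Under nicotine it was 2, Snrnp200 and the dimmer tested probe set of Hnrnpa1, against 6.72%. The 4 single comparisons share arrays, and none has a replicate.

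**Figure D3:**
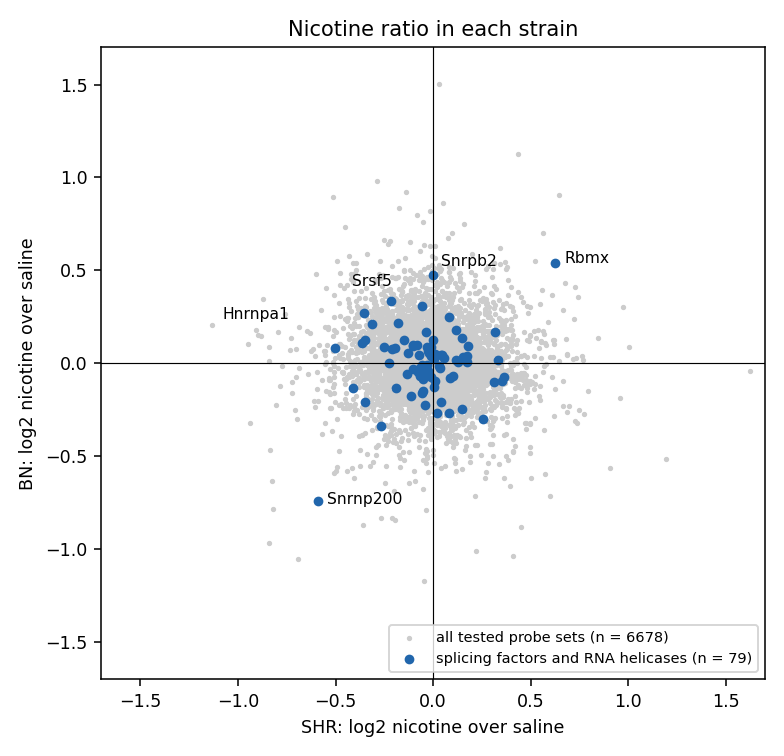
Log2 ratio of nicotine over saline in SHR (horizontal) and in BN (vertical) for the 79 tested members in blue and all 6678 tested probe sets in grey. Most members lie near the centre, Rbmx lies at 0.62 and 0.54, and Snrnp200 at -0.59 and -0.74.

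How far the probe sets of 1 gene agree may be read from the 12 member genes with several tested probe sets, 26 in all. All were read on the same 4 pools, so their agreement cannot show whether a strain or nicotine difference would repeat. Their strain ratios had the same sign in 5 genes and their nicotine ratios in 7. The median distance between the highest and lowest probe set of a gene was 0.14 for strain and 0.05 for nicotine, both smaller than the 0.23 half-width of a single interval. The 2 probe sets of Hnrnpa2b1 had strain ratios of 0.31 and 0.23, though the dimmer probe set, at 96.9 and 98.9 in SHR nicotine and saline and 82.2 and 84.6 in BN nicotine and saline, did not pass (adjusted p = 0.389 with limma). The 4 probe sets of Hnrnpa3, an hnRNP of mRNA transport, spanned -0.06 to 0.21 for strain and -0.21 to 0.11 for nicotine. The brightest of them read 838 and 955 in SHR nicotine and saline and 739.95 and 811 in BN nicotine and saline, and the next 598 and 623 in SHR nicotine and saline and 635 and 639 in BN nicotine and saline. The third read 186 and 264 in SHR nicotine and saline and 233 and 220.1 in BN nicotine and saline, and the dimmest 232 and 206 in SHR nicotine and saline and 205 and 199.7 in BN nicotine and saline. The third was lowest in SHR nicotine and the dimmest was highest there, so the probe sets of this gene disagree on nicotine in SHR. Hnrnpu, a scaffold protein of the nucleus, read 502 and 488 in SHR nicotine and saline and 508 and 492 in BN nicotine and saline on its brighter probe set and 373 and 290.1 in SHR nicotine and saline and 279 and 294 in BN nicotine and saline on the other, where SHR nicotine stood above the remaining pools. Hnrnpdl, a relative of hnRNP D, read 256 and 201 in SHR nicotine and saline and 222 and 237 in BN nicotine and saline on its brighter probe set and 107 and 108 in SHR nicotine and saline and 119 and 125 in BN nicotine and saline on the other. Its strain ratios were both below 0 and its nicotine ratios differed in sign. The widest distance was that of Hnrnpa1 for strain, 0.64.

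**Figure D4:**
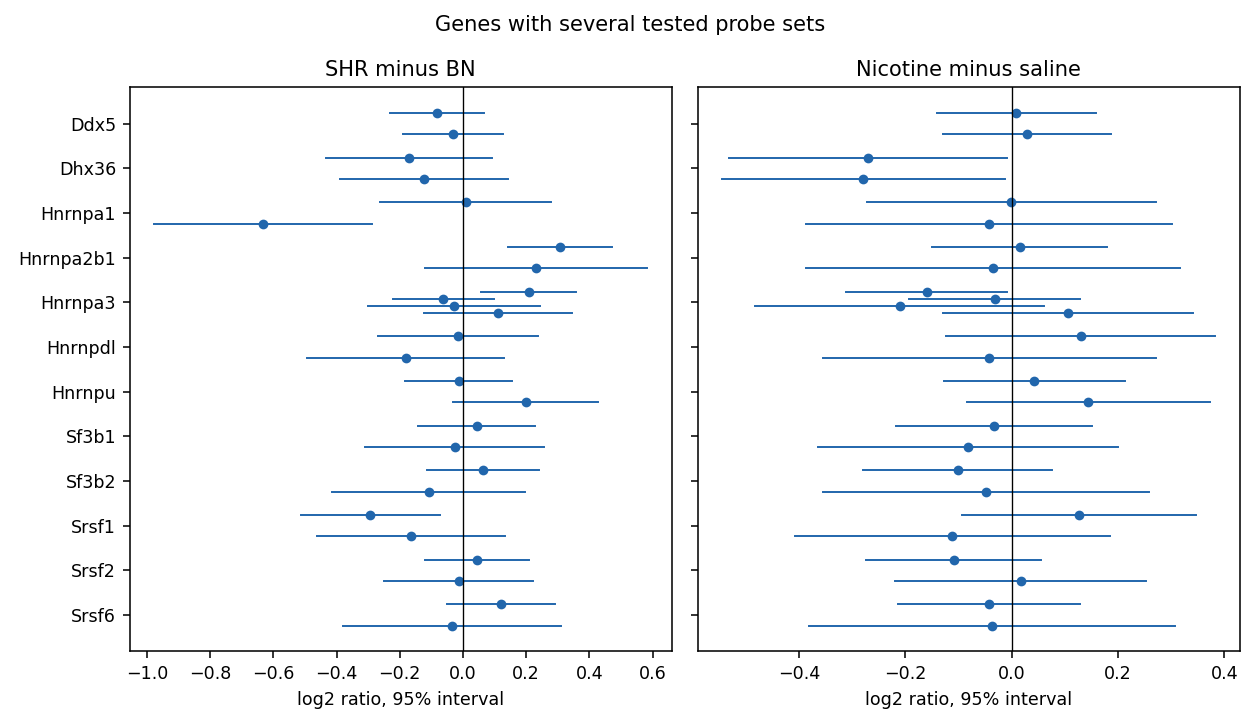
Log2 ratios with 95% limma intervals for the 12 genes with several tested probe sets, the brightest at the top within each gene, for SHR minus BN (left) and nicotine minus saline (right). The Hnrnpa1 probe sets stand apart for strain at 0.01 and -0.63, and the Dhx36 probe sets lie together for nicotine at -0.27 and -0.28.

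Beyond the members, 88 other genes of splicing and RNA helicase function were listed, and 67 probe sets of 58 of them were tested. For strain 3 were higher and 3 lower in SHR with limma, which is 8.96% against the background of 17.3%, and for nicotine 0 passed. Rbm3, a cold-induced RNA-binding protein, had the largest difference, at 212 and 202 in SHR nicotine and saline, against 326 and 364 in BN nicotine and saline (1.66-fold lower, log2 -0.73, SE 0.10). Both probe sets of Pcbp2, which binds cytidine tracts, were lower in SHR, with log2 ratios of -0.67 and -0.21. Clk2, a kinase of SR proteins, was 1.53-fold higher in SHR, and Elavl1, which stabilises AU-rich transcripts, and Lsm4, of the Lsm ring, were 1.25-fold and 1.34-fold higher. Their median nicotine ratio was 0.01 on the log2 scale.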

How the data were processed

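Kidney RNA of 4 groups was pooled by group and read on 1 Affymetrix RAE-230A array each, per the series' design text. The deposited values are signal intensity that the authors made with MAS5, per the submitters' processing notes; the program's version is not given in the labels. Each array's mean, trimmed by 2%, was 150.0, and the deposited intensities were not rescaled, and 57 control probe sets were left out. Of 15866 probe sets, 12783 had 1 gene symbol, 312 several and 2771 none; all 115 member symbols are current in RefSeq. The members and lists were chosen with earlier results of these data known. Every member may be named; all 4 signals are given for those called, past 1.5-fold, or extreme in their role group. Signals were floored at the 40th percentile, taken to log2 and fitted with limma 3.58.1 (R 4.3.3; lmFit, eBayes with intensity trend, 15.5 prior degrees of freedom) over 6678 probe sets. All p-values rest on 4 arrays, whose number limits precision. Comparisons of 2 pools were described by size. The fit was also run on simulated data with independent noise and additive changes. Those data held no array error shared by probe sets and no planted nicotine response that differs between strains. The run therefore cannot show how the fit handles either. Alternatives changed the floor, scaling, filter, trend, probe set choice and model.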

Additional observations from a re-analysis of the deposited data

Results flagged for a closer look

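The dimmer tested probe set of Hnrnpa1 had nicotine ratios of at least 1.2-fold in opposite directions in SHR and BN. Its signal was 85.8 in SHR nicotine against 110 in SHR saline, and 165 in BN nicotine against 137 in BN saline, so the nicotine log2 ratio was -0.36 in SHR and 0.27 in BN, a difference of -0.63. The difference was not tested. Of the 79 tested members it was the single one to do so (1.27%), where 121 of all 6678 tested probe sets did (1.81%). The brighter Hnrnpa1 probe set had -0.10 in SHR and 0.10 in BN. The third Hnrnpa1 probe set, below the limit and not tested, had 0.04 in SHR and -0.12 in BN.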

How the results depend on the processing

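No paired analysis was possible because each group is 1 pooled array. As reported, 5 members and 1153 probe sets passed for strain, and 0 members and 3 probe sets for nicotine. With the floor at the 60th percentile, 10 members of 45 tested passed for strain (22.2%, 3 of them shared with the 5), where 1011 of 3609 probe sets did (28.01%), and 18 probe sets passed for nicotine; Snrnp200 and the called Hnrnpa1 probe set then lay below the limit. After quantile normalisation 2 members and 675 probe sets passed for strain, and 0 probe sets for nicotine. After cyclic loess it was 3 and 750, and 0. Without the intensity trend it was 1 and 576, and 0. With no filter on low probe sets it was 0 and 0, and 0. With the filter on the higher group mean 0 probe sets passed for nicotine. With strain as the only factor and 1 array left out, between 0 and 4 members and between 426 and 863 probe sets passed; 0 members passed without BN nicotine (431 probe sets) or without BN saline (426). The cause of these shifts was not tested. No member passed for nicotine under any of the 13 alternatives run. Members 1.5-fold apart numbered 2 for nicotine in SHR, 1 in BN, 0 for strain under saline and 2 under nicotine. With the floor at the 20th percentile these were 4, 6, 4 and 6, and at the 60th percentile 0 in each. Quantile normalisation and cyclic loess each left 1 for nicotine in SHR. With no filter it was 2 in BN and 1 for strain under saline. Of 720 values of single named members under the alternatives, 684 kept their side of the threshold, 31 lost their call, 5 gained one, and 0 called values changed sign. Most of these values belong to members that were not called to begin with, and all 31 losses fell on the 5 called members. For strain, Hnrnpa2b1 stayed called under 9 of 13 alternatives, Snrnp200 under 7 of 12 and Hnrnpc under 6 of 13. Hnrnph1 stayed called under 5 of 13, and the Hnrnpa1 probe set under 4 of 11. With treatment as the only factor, chosen after seeing the data, 0 probe sets passed for nicotine on all 4 arrays and 0 with any 1 array left out.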

Other observations

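Several members below the limit had sizeable ratios that were not tested. One probe set of Sf3a1, a subunit that joins the U2 particle, read 68.0 in SHR nicotine and 66.2 in BN nicotine, against 32.9 in SHR saline, below the floor, and 45.7 in BN saline. The other Sf3a1 probe set read 54.3 in SHR nicotine and 44.7 in BN nicotine, against 56.8 in SHR saline and 31.3 in BN saline, so it was not higher in SHR nicotine. Ddx46, a helicase of the U2 particle, read 74.5 and 63.1 in SHR nicotine and saline, against 95.1 and 104 in BN nicotine and saline. Dhx57 read 71.7 and 81.4 in SHR nicotine and saline, against 50.3 and 54.3 in BN nicotine and saline. These genes were chosen after their values were seen.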
